A study of Mus musculus with 24 samples.

Results

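The comparison described here set the chromatin accessibility of mouse CD8 T cells cultured with lactate plus Oxyrase against that of the same kind of cells cultured with pyruvate. Its members were chosen by treatment and not by any measured value: the 3 ATAC-seq libraries labelled lactate with Oxyrase and the 3 labelled pyruvate, out of 12 ATAC-seq libraries and 24 samples in the series, and all 75802 peaks of the deposited count table. CD8 T cells of C57BL/6J mice were taken from spleen and lymph nodes with magnetic beads and activated in culture for 3 days with anti-CD28, IL-2 and β-mercaptoethanol. From day 2 to day 3 the pyruvate group received 20 mM sodium pyruvate and the other group 20 mM lactate together with Oxyrase, an enzyme preparation that removes dissolved oxygen from culture medium, and the dose of Oxyrase is not given in the labels. Lactate alone and NaCl, both at 20 mM, were the other groups, and RNA-seq was made for all 4 groups. The groups compared therefore differ in the compound added and in Oxyrase at once, and only the lactate group, which lies between them in treatment, allows the difference to be split into 2 steps. The labels do not say whether the replicates came from separate animals or cultures, so the p-values measure the spread between these samples. Because the samples are bulk cultures, fewer cells with an open region and less opening per cell cannot be told apart.

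ATAC-seq uses the Tn5 transposase, which inserts adapters where DNA is free of nucleosomes, so that the number of reads in a region reports how accessible it is. In T cells, peaks fall at gene starts, where the transcription machinery assembles and which are often rich in CpG and bound by factors present in most cells, and at enhancers inside and between genes, which open and close with activation and differentiation. Low oxygen limits the prolyl hydroxylases that mark HIF-1α for degradation and the 2-oxoglutarate-dependent demethylases of histones and DNA, and lactate and pyruvate feed opposite sides of the lactate dehydrogenase reaction, which links them to the NADH balance of the cell.

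Accessibility was measured as read counts per peak, scaled to library size with TMM factors (CPM), and the 6 libraries held between 27387377 and 37074367 counts in peaks. RNA-seq of the same treatments is given as log2 fold changes of estimated counts; the name of the deposited RNA table calls its counts adjusted without saying how, so the spread between RNA replicates may be too small. A ± beside a log2 fold change is its SE. Lactate with Oxyrase differed from pyruvate at 29906 of 75802 peaks (39.5%; edgeR quasi-likelihood test, Benjamini-Hochberg adjusted p under 0.05), of which 16348 were higher (21.6% of all peaks) and 13558 were lower (17.9%). Changes were mostly modest in size: 1909 of the called peaks changed at least 2-fold, 1362 of them upward and 547 downward, and the median absolute log2 fold change of a called peak was 0.55. The 3 values of 1 group did not overlap with the 3 values of the other at 27985 of the called peaks (93.6%). Over all 75802 peaks, called or not, the groups did not overlap at 36234 (47.8%). The split into higher and lower peaks depended on how libraries were scaled. Higher peaks made up 54.7% of the calls with TMM, 49.8% with DESeq2 size factors, 46.4% with upper-quartile scaling, 67.8% with total counts (21487 higher and 10184 lower), 38.7% with TMM taken from peaks away from gene ends (11306 and 17926) and 79.3% with TMM taken from peaks at gene ends (28470 and 7430). Relative to the TMM median of 0.05, these scalings moved the median log2 fold change of all peaks by −0.03, −0.05, 0.10, −0.11 and 0.19 in that order. Directions are therefore given relative to TMM, and a peak called the same way under all 6 scalings is said to be scaling-robust; 11306 higher and 7430 lower peaks met that condition.

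More peaks passed the test in the Oxyrase step than in the step from pyruvate to lactate. Against lactate alone, lactate with Oxyrase differed at 21539 peaks (28.4%; 11843 higher and 9696 lower), and lactate differed from pyruvate at 8804 peaks (11.6%; 3620 higher and 5184 lower). At 2-fold or more the counts were 1924 and 79 peaks. These steps share the lactate libraries, and their log2 fold changes sum to the comparison. On the first principal component of accessibility, which held 42.2% of the variance, the 3 libraries with Oxyrase lay between 75.3 and 92.7 and the other 9 libraries between −52.4 and −3.66.

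Direction differed with position in the genome and, within a class, with peak width. Peaks within 1 kb of both a gene end and a listed gene start, called gene starts here, were lower far more often than higher. Of 11833 such peaks, 45.6% were called lower and 7.89% higher, with a median log2 fold change of −0.21. Peaks at listed starts further inside a gene were counted as intragenic. Away from gene ends the balance was the other way, with 26.0% of 36333 intragenic peaks called higher and 11.03% lower (median 0.13), 23.6% and 11.7% of 18435 intergenic peaks up to 50 kb from a gene (median 0.11), and 26.5% and 8.22% of 1423 peaks further out (median 0.17). The 7778 other peaks within 1 kb of a gene end, which hold 3′ ends and starts outside the promoter table, were intermediate (15.9% higher and 24.3% lower, median −0.03). On chromosome 18, 0.0% of 2362 peaks were in the gene-start class, so peaks at its gene starts are among these others. Among scaling-robust peaks, gene starts held 500 higher and 3547 lower, intragenic peaks 6667 and 1799, intergenic peaks up to 50 kb 3086 and 976, and peaks beyond 50 kb 265 and 57. A scaling moves all peaks by nearly the same amount. The gap between gene starts and peaks away from gene ends was therefore bound to stay under all 6 scalings. The level did move: the median of gene starts ranged from −0.32 to −0.02 and that of peaks away from gene ends from 0.02 to 0.31. With a loess trend on mean level removed, all gene-end peaks had a median of −0.088 (−0.15 with TMM). Peaks away from gene ends then had 0.052 (0.12 with TMM). Gene starts up to 250 bases wide were called higher in 10.5% and lower in 10.6% (median 0.01). For gene starts over 1 kb wide the shares were 4.41% and 53.9% (median −0.25). Away from gene ends the median was 0.13 up to 250 bases and 0.03 over 1 kb. Over 1 kb, 23.5% there were higher and 22.2% lower. In each width class the median was lower at gene starts than away from gene ends. Median widths were 918 bases at gene starts and 378 bases for intragenic peaks.

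**Figure D1:**
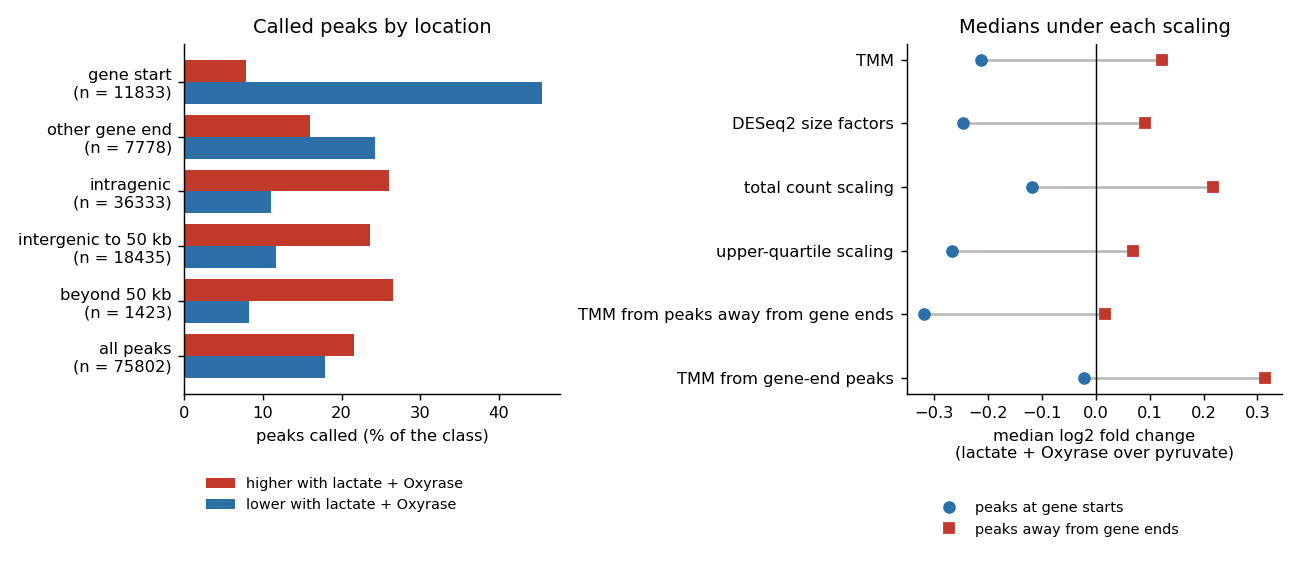
Left, share of peaks called higher (red) or lower (blue) with lactate and Oxyrase in each location class, in percent of the class; lower calls outnumber higher ones at gene starts (45.6% against 7.89%) and other gene ends, and the reverse holds in the 3 classes away from gene ends. Right, median log2 fold change of peaks at gene starts (circles) and of peaks away from gene ends (squares) under 6 scalings. A scaling moves all peaks by nearly the same amount. The distance from circle to square is therefore nearly the same in every row, and only the position of both relative to 0 moves.

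The same shift was visible in each library without any fold change. Peaks at gene starts took 40.1%, 40.6% and 38.7% of the counts in the pyruvate libraries and 34.5%, 35.9% and 35.3% in the libraries with lactate and Oxyrase. The groups did not overlap (difference −4.57 percentage points; two-sided exact permutation test, p = 0.10, the smallest that 3 against 3 samples allow). Lactate alone gave 38.2%, 36.8% and 36.9%, and NaCl gave 40.4%, 40.9% and 37.8%, so that all 9 libraries without Oxyrase were above the 3 with it.

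Accessibility also moved with the number of genes around a peak, in both classes. Peaks were sorted by the number of protein-coding genes within 500 kb on either side, a grouping added after the locations had been seen. Away from gene ends the median log2 fold change fell from 0.19 in the sparsest class (0 to 5 genes, 14302 peaks) through 0.18, 0.08 and −0.05 to −0.18 in the densest (over 40 genes, 1566 peaks). At gene starts it fell from 0.05 through −0.08, −0.25 and −0.38 to −0.49, and the share of starts called lower went from 14.3% to 73.3%. Replicate 2 with Oxyrase was the furthest of its group away from gene ends, at a median deviation from the mean of all 12 libraries of 0.17 in the sparsest and −0.19 in the densest class; without it the medians of the 5 classes were 0.17, 0.17, 0.10, −0.009 and −0.14. At gene starts they were then −0.01, −0.12, −0.26, −0.38 and −0.48, so that the sparsest class changed sign. Both steps carried the trend: in the densest class, gene starts had a median of −0.21 for lactate with Oxyrase against lactate and −0.28 for lactate against pyruvate.

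**Figure D2:**
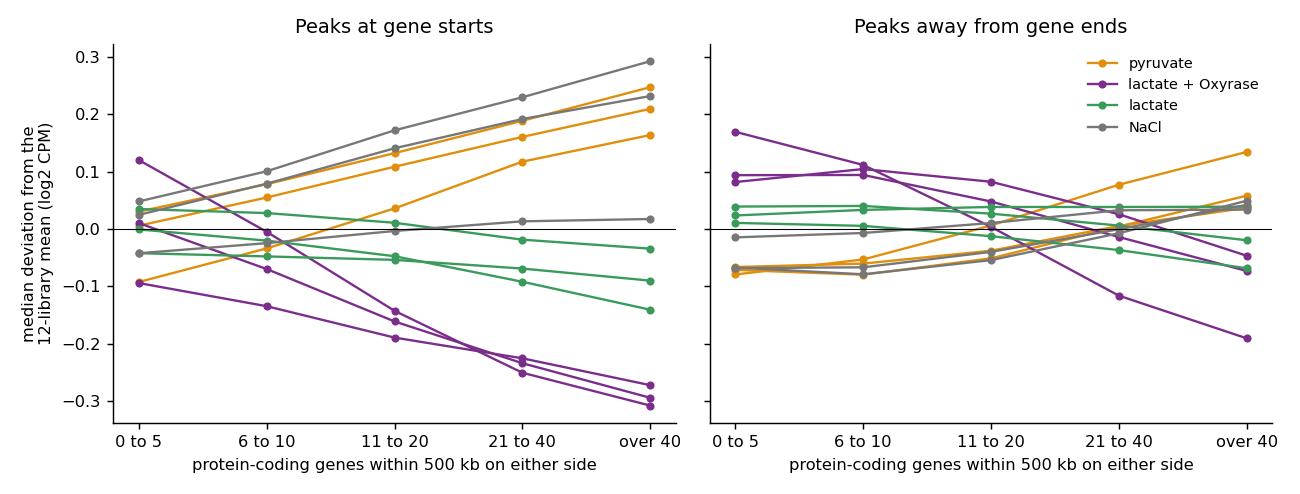
Median deviation of each of the 12 ATAC-seq libraries from the mean of all libraries (log2 CPM, y axis) in 5 classes of gene density (x axis), for peaks at gene starts (left) and away from gene ends (right); each line is 1 library, coloured by group. The 3 lines with Oxyrase end lower at the right than they start at the left in both panels, and in the densest class of gene starts all 3 lie below the other 9.

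Chromosomes differed too, though not simply by gene density. Chromosome 11, with 13.2 protein-coding genes per Mb, had 1788 of 5037 peaks called lower (35.5%) and a median log2 fold change of −0.19, followed by chromosome 19 (33.4% lower, median −0.17) and, at 7.47 genes per Mb, chromosome 15 (26.9% lower, median −0.07). Chromosome 7, the densest at 13.97 genes per Mb, had 20.8% of its peaks higher and 19.2% lower (median 0.02). At the other end were chromosome 3 (28.6% higher, median 0.17) and chromosome X (27.3% higher, median 0.18). The share of all counts that fell on chromosome 11 was 7.16%, 7.20% and 7.29% with pyruvate, 5.92% to 6.32% with lactate and Oxyrase and 6.51% to 6.64% with lactate alone. For chromosome 3 the shares were 5.21% ± 0.01 (SD, n = 3) with pyruvate and 5.78% ± 0.14 (SD, n = 3) with lactate and Oxyrase.

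Promoters whose accessibility changed differed in sequence, and 7 are shown to let those sequences be read beside the peak values below: of the 30 chosen genes, these had a promoter that met a called peak, with up to 4 of smallest p in each direction, which gave 3 higher and 4 lower. Each is the 250 bases upstream of the annotated start on the gene's own strand, from RefSeq for the build GRCm38.p6 (mm10), and each lies wholly inside its peak. Capitals mark, in all 7, matches on either strand to the AP-1 motif TGANTCA, the GC box GGGCGG and the ETS motif CCGGAAG. Overlapping GC boxes are joined. The antioxidant response core was searched only as TGACNNNGC, which had 0 matches in the 7 windows. Sequences with TGAG in place of TGAC, such as TGAGTCAgc in the Srxn1 window, were not counted. Nqo1 encodes a quinone reductase, Havcr2 the inhibitory receptor TIM-3, Srxn1 sulfiredoxin, which reactivates oxidised peroxiredoxins, Tnf the inflammatory cytokine TNF, Tcf7 the transcription factor TCF-1 of naive and memory T cells, Irf1 an interferon-induced transcription factor, and Tbx21 the effector factor T-bet.
Nqo1, chr8:107403206-107403455, minus strand, higher: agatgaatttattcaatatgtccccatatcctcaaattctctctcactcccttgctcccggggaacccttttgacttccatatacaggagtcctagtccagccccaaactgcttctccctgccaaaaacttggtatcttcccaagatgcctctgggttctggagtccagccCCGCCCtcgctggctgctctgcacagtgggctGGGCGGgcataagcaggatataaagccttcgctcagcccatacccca
Havcr2, chr11:46454681-46454930, plus strand, higher: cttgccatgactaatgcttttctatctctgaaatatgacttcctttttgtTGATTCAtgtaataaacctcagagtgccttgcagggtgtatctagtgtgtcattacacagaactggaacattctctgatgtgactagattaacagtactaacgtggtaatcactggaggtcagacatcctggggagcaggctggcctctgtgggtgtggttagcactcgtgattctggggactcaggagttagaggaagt
Srxn1, chr2:152105274-152105523, plus strand, higher: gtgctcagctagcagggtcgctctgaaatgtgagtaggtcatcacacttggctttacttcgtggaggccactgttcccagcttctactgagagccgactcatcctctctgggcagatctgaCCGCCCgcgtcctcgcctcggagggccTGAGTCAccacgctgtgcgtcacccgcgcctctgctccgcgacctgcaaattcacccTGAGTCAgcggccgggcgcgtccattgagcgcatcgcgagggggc
Tnf, chr17:35202008-35202257, minus strand, lower: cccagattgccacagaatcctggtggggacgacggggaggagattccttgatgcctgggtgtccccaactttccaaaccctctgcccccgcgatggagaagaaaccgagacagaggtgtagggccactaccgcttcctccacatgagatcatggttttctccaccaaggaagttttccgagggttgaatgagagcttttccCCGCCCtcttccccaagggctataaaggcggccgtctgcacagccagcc
Tcf7, chr11:52282596-52282845, minus strand, lower: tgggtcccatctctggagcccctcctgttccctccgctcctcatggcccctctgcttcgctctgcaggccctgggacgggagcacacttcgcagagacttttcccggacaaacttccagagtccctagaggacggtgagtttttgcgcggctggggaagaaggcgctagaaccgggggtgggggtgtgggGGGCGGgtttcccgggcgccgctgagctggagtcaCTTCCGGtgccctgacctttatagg
Irf1, chr11:53769764-53770013, plus strand, lower: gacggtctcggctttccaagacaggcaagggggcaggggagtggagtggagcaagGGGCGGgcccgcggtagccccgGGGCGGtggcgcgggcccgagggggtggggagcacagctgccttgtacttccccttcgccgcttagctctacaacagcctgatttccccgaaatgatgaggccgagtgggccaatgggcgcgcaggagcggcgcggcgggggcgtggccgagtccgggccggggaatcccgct
Tbx21, chr11:97115332-97115581, minus strand, lower: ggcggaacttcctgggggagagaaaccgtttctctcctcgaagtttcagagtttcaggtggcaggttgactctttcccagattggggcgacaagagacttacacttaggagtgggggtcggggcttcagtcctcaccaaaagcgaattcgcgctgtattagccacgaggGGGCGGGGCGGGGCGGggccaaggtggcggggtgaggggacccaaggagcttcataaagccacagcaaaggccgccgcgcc
AP-1 matches stood in Havcr2 (1) and Srxn1 (2) and in none of the 4 lower promoters, while Nqo1, the most raised of the 3 higher ones, held 0 AP-1 matches and 2 GC boxes. Each lower promoter held at least 1 GC box, as did Srxn1 (1), and the only ETS match was in Tcf7.

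Over all 8474 promoter windows that lay inside a peak, 429 were in a higher peak, 4698 in a lower peak and 3347 in a peak that was not called. The AP-1 motif was in 17.2% of the higher promoters and 3.15% of the lower ones, against 4.44% of all 8474 in peaks and 6.75% of all 32851 promoters of the table. GC boxes were in 41.0% of higher and 70.5% of lower promoters (64.9% of those in peaks, 32.7% of all), and the ETS motif in 5.13% and 17.2% (14.6% of those in peaks, 6.91% of all). The RUNX motif TGTGGTT was in 7.23% and 2.94% (3.36% of those in peaks, 4.396% of all), and the HIF core ACGTG in 18.2% and 24.8% (23.1% of those in peaks, 16.6% of all). Base composition went with these motifs. In promoters with at most 5 CpG in the 250 bases the median log2 fold change was 0.03, with 21.6% called higher and 19.5% lower. In those with more than 25 CpG it was −0.37, with 1.31% called higher and 66.4% lower. Motif shares were not tested at matched base composition.

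Of the 8 highest named peaks, none was in the gene-start class. These were taken from called peaks of mean log2 CPM at least 3 near a gene with a symbol, without overlap between the groups; over all peaks the log2 fold change ran from −2.40 to 2.09. The highest of them lay 17.1 kb from Bvht, a long noncoding RNA gene, on chromosome 18 (61622079 to 61622571), with 5.38, 4.70 and 5.09 CPM in the pyruvate libraries and 16.7, 20.3 and 16.8 CPM with lactate and Oxyrase. All 3 Oxyrase values were above 16 CPM and all pyruvate values under 6 CPM, a log2 fold change of 1.82 ± 0.12 (SE; adjusted p = 8.51e-15). Next came a peak inside Iqschfp on chromosome 3 (9.75, 9.67 and 9.27 against 30.2, 32.6 and 26.5 CPM; log2 fold change 1.64 ± 0.10). A peak in Clcn3, which encodes a chloride/proton exchanger of endosomes, covered a listed start inside the gene and went from 7.73, 7.72 and 6.65 CPM to 21.02, 24 and 20.53 CPM (1.57 ± 0.12). The other peaks among the 8 highest lay at Tenm4 (1.55), Sh3rf1 (1.49), Mettl21a (1.48), Dusp16, a phosphatase of JNK and p38 kinases (1.41), and Pcnx4 (1.39). Transcripts were called at some of these genes and not at others: Sh3rf1 rose by 0.86 ± 0.04 (log2) and Dusp16 by 0.49 ± 0.05, while Clcn3 had −0.05 ± 0.04 (adjusted p = 0.298) and Tenm4 −0.22 ± 0.23 (adjusted p = 0.468).

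Among the 8 lowest peaks chosen by the same rule, 3 lay at gene starts and 3 on chromosome 11. The lowest of the 8 lay 1.29 kb upstream of the start of Mllt6, a partner of the histone methyltransferase DOT1L, on chromosome 11 (97661759 to 97662122), with 27.4, 27.5 and 22.6 CPM in the pyruvate libraries and 7.77, 10.2 and 8.95 CPM with lactate and Oxyrase. Its log2 fold change was −1.53 ± 0.13 (adjusted p = 6.22e-12), and the highest Oxyrase value stayed under the lowest pyruvate value by more than 2-fold. Downstream of Pim1, which encodes a serine/threonine kinase induced by cytokines, a peak fell from 9.78, 12.2 and 11.9 CPM to 4.43, 3.93 and 4.66 CPM (−1.37 ± 0.13). At 17 kb upstream of Bcat1, the cytosolic branched-chain aminotransferase, a peak fell from 17.12, 16.98 and 14.75 CPM to 5.76, 6.45 and 6.96 CPM (−1.35 ± 0.13), although the Bcat1 transcript rose by 0.79 ± 0.05. The others lay at Fgd2 (−1.44), Bdh1 (−1.36), Lrrc46 (−1.34), Zbtb12 (−1.34) and Atxn7l3 (−1.32). Each of these 16 peaks was scaling-robust. That adds no support, because they were picked by size and the scalings moved the median of all peaks by only −0.11 to 0.19.

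Peaks were also counted by locus, and a peak within 10 kb of more than 1 gene counted for each. Foxp1, a transcription factor that maintains naive T cell quiescence, had the most higher peaks, 22 of 90 within the gene or 10 kb of it with 9 lower, but that share (24.4%) was near the 21.6% of all peaks. Atp10a, a phospholipid flippase, had 21 higher and 0 lower of 33 (63.6% higher), Itpr1, the IP3 receptor, 21 and 2 of 42 (50%), Lpp 21 and 1 of 55 (38.2%), and Inpp4b, a phosphoinositide phosphatase, 20 and 4 of 61 (32.8%). The most lower peaks were at Igh, the immunoglobulin heavy chain locus (19 of 126), Septin9 (15 of 32), Acoxl (14 of 28) and Grap2, an adaptor of T cell receptor signalling (14 of 21), then Gse1 (12 of 38) and Plec (12 of 16) with equal counts. For Igh, 19 of 126 is a smaller share than the 17.9% of all peaks called lower, and for Grap2 and Plec most of the locus was lower. Foxp1 and Inpp4b transcripts fell, by 0.55 and 0.89 on the log2 scale, while most of their called peaks rose; the Grap2 transcript fell by 0.81.

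The main effector cytokine genes moved in opposite directions. At Tnf, which encodes the inflammatory cytokine TNF, all 7 peaks within the gene or 10 kb of it were lower. The peak over the Tnf start (chromosome 17, 35201905 to 35202364) held 34.3, 34.3 and 30.7 CPM with pyruvate and 12.8, 14.4 and 13.7 CPM with lactate and Oxyrase, so the groups lay more than 2-fold apart. Its log2 fold change was −1.28 ± 0.11 (adjusted p = 6.76e-12), of which −0.78 was in the step from pyruvate to lactate and −0.51 in the step to lactate with Oxyrase. The other 6 Tnf peaks ranged from −0.996 to −0.39, and the last of these, at 1.21 kb downstream of the start, was not scaling-robust. The region is shared with Ltb and other genes of the cluster, and 64 protein-coding genes lay within 500 kb. Tnf transcript did not pass the test: it was at 56.1, 64.4 and 62.5 CPM with pyruvate and 52.3, 53.6 and 62.8 CPM with lactate and Oxyrase (log2 fold change −0.11 ± 0.07, adjusted p = 0.196), whereas the transcript of Ltb fell by 1.23 ± 0.09.

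At Ifng, the gene of interferon-γ, 3 of 6 peaks were higher and none lower. The clearest was in the gene, 1.88 kb downstream of the start (chromosome 10, 118442926 to 118443340), with 12.4, 13.7 and 12.8 CPM in the pyruvate libraries and 20.3, 21.6 and 19.7 CPM with lactate and Oxyrase (0.66 ± 0.09, adjusted p = 2.42e-07). The groups did not overlap. The peak over the start itself had values of 20.7, 20.5 and 19.2 CPM against 18.03, 21.3 and 18.2 CPM (−0.07 ± 0.09, adjusted p = 0.580). Ifng transcript rose by 1.42 ± 0.07 (adjusted p = 3.19e-11). The other 2 higher peaks at Ifng, 5.17 kb upstream and 10.8 kb downstream of the start, were not scaling-robust.

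The peaks at other effector genes were mixed. Over the Tbx21 start accessibility fell from 21.9, 23.1 and 21.9 CPM to 12.5, 11.2 and 14.8 CPM (−0.80 ± 0.10, adjusted p = 2.26e-08), and of 7 peaks at this gene 3 were lower and 1 higher; its transcript did not pass the test (−0.04 ± 0.06, adjusted p = 0.558). Prf1, the gene of perforin, had 36.0, 35.9 and 35.0 CPM against 40.8, 38.6 and 36.7 CPM over its start (0.12 ± 0.09, adjusted p = 0.278), while its transcript rose by 0.64 ± 0.07. Gzmb, the gene of granzyme B, had a start peak at −0.24 ± 0.09 (adjusted p = 0.0244) whose call was lost under other scalings, and a transcript that rose by 0.35 ± 0.07. An intragenic peak of Zeb2, a factor of terminal effector cells, rose from 5.02, 4.70 and 4.54 CPM to 10.2, 10.3 and 10.7 CPM (1.13 ± 0.14), together with its transcript (0.81 ± 0.07). Over the 131 peaks at effector genes, 35 were higher (26.7%) and 27 lower (20.6%) with a median of 0.09, against 21.6%, 17.9% and 0.05 over all peaks. Of 25 transcripts 17 rose (68.0%, against 22.9% of all genes) and 1 fell.

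Over the genes of inhibitory receptors and exhaustion, 53 of 219 peaks were higher (24.2%) and 37 lower (16.9%), shares near those of all peaks (21.6% and 17.9%), with a median of 0.06; single loci stood further out. At Pdcd1, which encodes PD-1, 6 of 7 peaks were higher. The clearest was inside the gene, 4.04 kb downstream of its start, at 20.2, 20.0 and 17.1 CPM with pyruvate and 31.6, 35.2 and 26.3 CPM with lactate and Oxyrase (0.70 ± 0.10, adjusted p = 1.72e-07). That over the start was the exception (0.05 ± 0.10, adjusted p = 0.720), and 3 of the 6 were scaling-robust. Pdcd1 transcript did not pass the test (−0.05 ± 0.04, adjusted p = 0.409). At Havcr2, 5 of 10 peaks were higher and none lower, and the start peak, whose promoter is printed above, held 14.5, 15.1 and 14.6 CPM against 20.6, 19.3 and 17.7 CPM (0.38 ± 0.10, adjusted p = 0.00273). Only this one of the 5 was scaling-robust, and the transcript rose by 0.97 ± 0.14. Upstream of Lgals3, the gene of galectin-3, a peak rose by 0.99 ± 0.13 and the transcript by 1.64 ± 0.07. Tox, a factor of exhausted T cells, had 8 higher and 2 lower peaks of 33 and a transcript that fell by 0.71 ± 0.08, and Prdm1, the gene of BLIMP-1, had 8 higher peaks of 14 and a transcript that rose by 0.74 ± 0.17. The start of Cd274, the gene of PD-L1, fell by 0.66 ± 0.09. Of 23 transcripts 7 rose (30.4%, against 22.9% of all genes) and 12 fell (52.2%, against 21.2%).

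**Figure D3:**
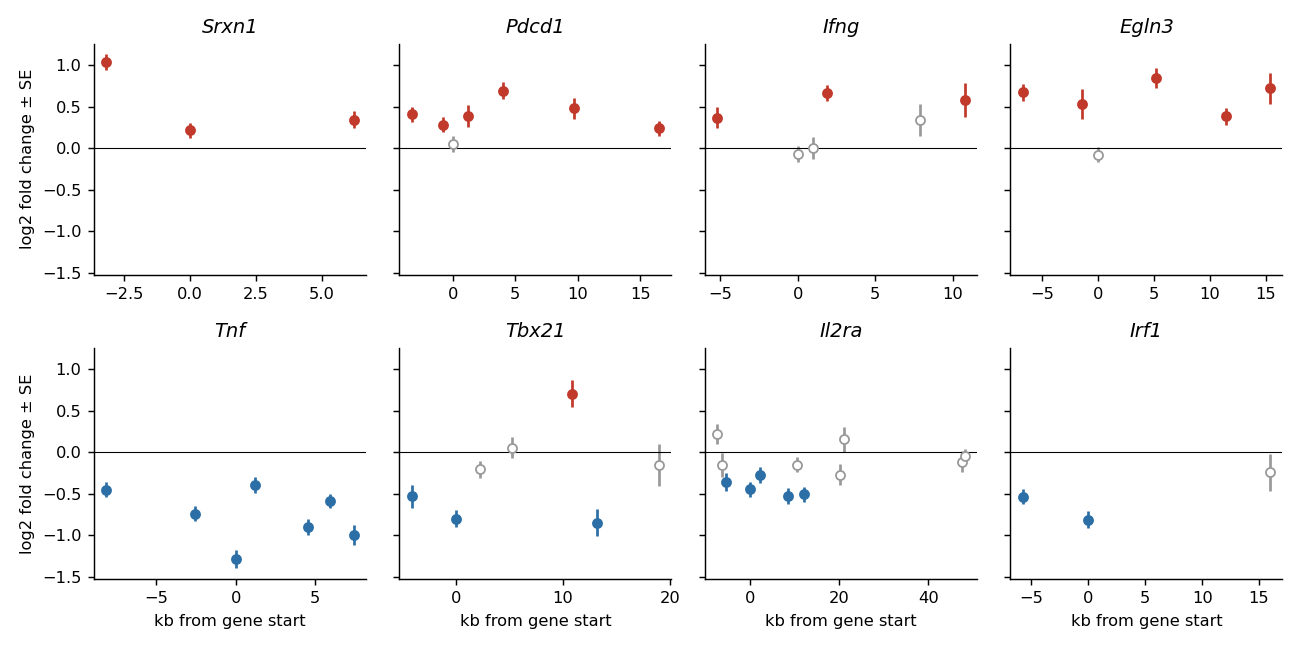
Log2 fold change (lactate with Oxyrase over pyruvate, y axis, ± SE) of every peak within 10 kb of 8 genes, by distance of the peak from the gene start in kb (negative upstream). Filled red and blue points were called higher and lower, open points were not called; all 7 points at Tnf are blue, and at Pdcd1, Ifng and Egln3 the point over the start is open.

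At naive and memory genes the shares of called peaks were near those of all peaks of the same location. Tcf7 had 17.1, 20.5 and 18.1 CPM over its start with pyruvate and 9.64, 10.5 and 9.95 CPM with lactate and Oxyrase (−0.88 ± 0.11, adjusted p = 1.18e-08), with an upstream neighbour at −0.90. Its transcript did not pass the test (0.02 ± 0.04, adjusted p = 0.674). A peak near Ccr7, the lymph node homing receptor, fell by 0.71 ± 0.09 and its transcript by 0.59 ± 0.04. Gene-start peaks of a list, here and below, are those in or within 10 kb of its genes, so some are starts of neighbouring genes. Of 33 on this list 16 were lower (48.5%, against 45.6% of all gene starts) and 0 higher (against 7.89%). Of 293 peaks away from gene ends 78 were higher (26.6%, against 25.2%) and 39 lower (13.3%, against 11.2%). Transcripts fell in 14 of 24 genes (58.3%, against 21.2% of all genes) and rose in 3.

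At T cell activation genes more peaks were lower than higher. Of 212 peaks 73 were lower (34.4%, against 17.9% of all peaks) and 32 higher (median −0.11). Of the 35 at gene starts 24 were lower (68.6%, against 45.6% of all starts) and 1 higher. Counted by gene, the start peak was lower in 59.4% of the 9103 genes with a start peak and a measured transcript. Of 18 such activation genes, 3 had a lower start with a higher transcript, 4 with an uncalled transcript and 7 with a lower one. At Myc, the growth factor-induced transcription factor, 4 of 6 peaks were lower and 1 higher; the one of smallest p held 24.5, 24.7 and 23.4 CPM with pyruvate and 15.2, 15.3 and 13.5 CPM with lactate and Oxyrase (−0.72 ± 0.09, adjusted p = 1.39e-08). Myc transcript fell by 0.57 ± 0.04, and only 1 protein-coding gene lay within 500 kb of this peak. Il2ra, the high-affinity IL-2 receptor chain, had 5 lower peaks of 12, the strongest by p at 47.6, 46.3 and 43.3 against 32.8, 34.3 and 29.6 CPM (−0.50 ± 0.09), and its transcript fell by 0.25 ± 0.03. Over the start of Irf8, a factor of the interferon regulatory family, accessibility fell from 66.4, 63.0 and 62.9 CPM to 34.4, 34.1 and 31.6 CPM (−0.94 ± 0.10), and the transcript by 0.85 ± 0.03. An intragenic peak of Nfkb1, the NF-κB subunit p50, rose by 1.13 ± 0.12.

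Genes of the oxygen response had peaks in both directions. HIF targets outside glycolysis had 30 higher (18.6%) and 42 lower (26.1%) peaks of 161 (median −0.04). The 34 at gene starts were lower in 22 (64.7%, against 45.6% of all starts) and higher in 1. Counted by gene, 59.4% of the 9103 genes with both a start peak and a measured transcript had a lower start peak. Of 19 such HIF target genes, 6 had a lower start with a higher transcript, 6 with an uncalled transcript and 3 with a lower one. The 112 peaks away from gene ends were higher in 28 (25%) and lower in 15 (13.4%), near the 25.2% and 11.2% of all such peaks. Transcripts of 14 of the 27 measured genes rose (51.9%, against 22.9% of all genes) and 3 fell. At Egln3, the prolyl hydroxylase PHD3, 5 of 6 peaks were higher and the start was not called (−0.08 ± 0.09, adjusted p = 0.511). The intragenic peak of smallest p went from 7.62, 6.21 and 7.99 CPM to 12.2, 14.3 and 12.7 CPM (0.85 ± 0.12, adjusted p = 3.16e-07), nearly all of it in the Oxyrase step (0.79, against 0.05 for lactate over pyruvate). Egln3 transcript rose by 0.81 ± 0.10. In Bnip3, a mitophagy receptor, an intragenic peak rose from 8.55, 9.08 and 9.92 CPM to 17.7, 17.2 and 17.8 CPM (0.94 ± 0.11) and the transcript by 0.25 ± 0.08. Vegfa, which encodes an angiogenic growth factor, went the other way: 2 of its 3 peaks were lower, the one of smallest p at 13.8, 13.1 and 16.3 against 9.78, 9.16 and 10.3 CPM (−0.56 ± 0.11), while its transcript rose by 1.16 ± 0.09.

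Glycolysis genes had similar counts in each direction, with 24 higher (17.02%) and 28 lower (19.9%) of 141, against 21.6% and 17.9% of all peaks. The start of Slc2a1, the glucose transporter GLUT1, fell by 0.39 ± 0.09 with a transcript at −0.07 ± 0.06 (adjusted p = 0.380). An upstream peak near Ldha, a lactate dehydrogenase subunit, rose by 0.56 ± 0.11 with a transcript that fell by 0.25 ± 0.04. A peak in Pfkfb3, which makes the activator of phosphofructokinase, rose from 21.3, 17.02 and 18.2 CPM to 37.0, 28.1 and 29.9 CPM (0.75 ± 0.10). Among the oxygen-dependent dioxygenases 47 of 158 peaks were lower (29.7%, against 17.9% of all peaks) and 34 higher (21.5%, against 21.6%). At the demethylase gene Kdm2a a start peak changed by −1.2004 ± 0.11 and its transcript did not pass the test (0.00 ± 0.04, adjusted p = 0.995). A peak in Fto, an RNA demethylase gene, rose by 1.03 ± 0.10, and one at Kdm6b, an H3K27 demethylase gene, fell by 1.09 ± 0.11 although the transcript rose by 0.65 ± 0.07.

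A few antioxidant genes had some of the clearest rises. These genes are known targets of NRF2, a factor that binds antioxidant response elements when cells meet oxidants or electrophiles. Over the start of Nqo1, a quinone reductase, the pyruvate libraries held 27.7, 24.7 and 23.2 CPM and those with lactate and Oxyrase 48.5, 43.2 and 44.6 CPM. This was a rise of 0.85 ± 0.09 (adjusted p = 5.23e-10) against a class in which 7.89% of peaks rose, and 0.81 of it was in the Oxyrase step. A peak 3.17 kb upstream of the Srxn1 start rose from 25.9, 20.3 and 20.9 CPM to 47.3, 47.3 and 43.3 CPM (1.04 ± 0.10, adjusted p = 2.48e-11), and all 3 peaks of this gene were higher; that over the start, printed above, was at 0.22 ± 0.09 and not scaling-robust. Hmox1, heme oxygenase 1, had a peak 9.29 kb from the gene at 7.06, 5.73 and 5.34 against 9.99, 11.06 and 11.05 CPM (0.81 ± 0.13, adjusted p = 2.27e-06). Transcripts rose with each of the 3, by 1.05 ± 0.19 for Nqo1, 0.70 ± 0.11 for Srxn1 and 1.59 ± 0.10 for Hmox1. Over the whole list the shares were near those of all peaks: of its 124 peaks 29 were higher (23.4%) and 24 lower (19.4%), with a median of −0.04, among them a lower start peak at Mafg, a partner of NRF2 (−0.88 ± 0.10), and 11 transcripts rose and 10 fell of 26. The antioxidant response core in its searched form TGACNNNGC was in 13.3% of higher and 12.8% of lower promoters (12.6% of those in peaks). The printed Nqo1 window held 0 matches to it or to AP-1, which says only that these letters are not in those 250 bases.

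Metallothionein and zinc transport genes had 15 higher (31.2%) and 6 lower (12.5%) peaks of 48, with a median of 0.16, against 21.6% and 17.9% of all peaks. At Mt1, a metal-binding protein gene, the peak of smallest p held 18.2, 20.0 and 18.5 CPM against 24.5, 25.3 and 27.2 CPM (0.44 ± 0.09), and Mt1 transcript rose by 1.72 ± 0.11. At interferon-stimulated genes 25 of 122 peaks were higher (20.5%) and 21 lower (17.2%), near the shares of all peaks, while 13 of 27 transcripts fell (48.1%, against 21.2% of all genes) and 3 rose. Irf1 was the clear loss: its start peak, printed above, held 63.5, 60.02 and 56.4 CPM with pyruvate and 35.1, 32.5 and 35.2 CPM with lactate and Oxyrase (−0.81 ± 0.10, adjusted p = 1.83e-08). The drop came from both steps (−0.45 for lactate over pyruvate and −0.36 for Oxyrase), and Irf1 transcript fell by 0.86 ± 0.04.

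**Figure D4:**
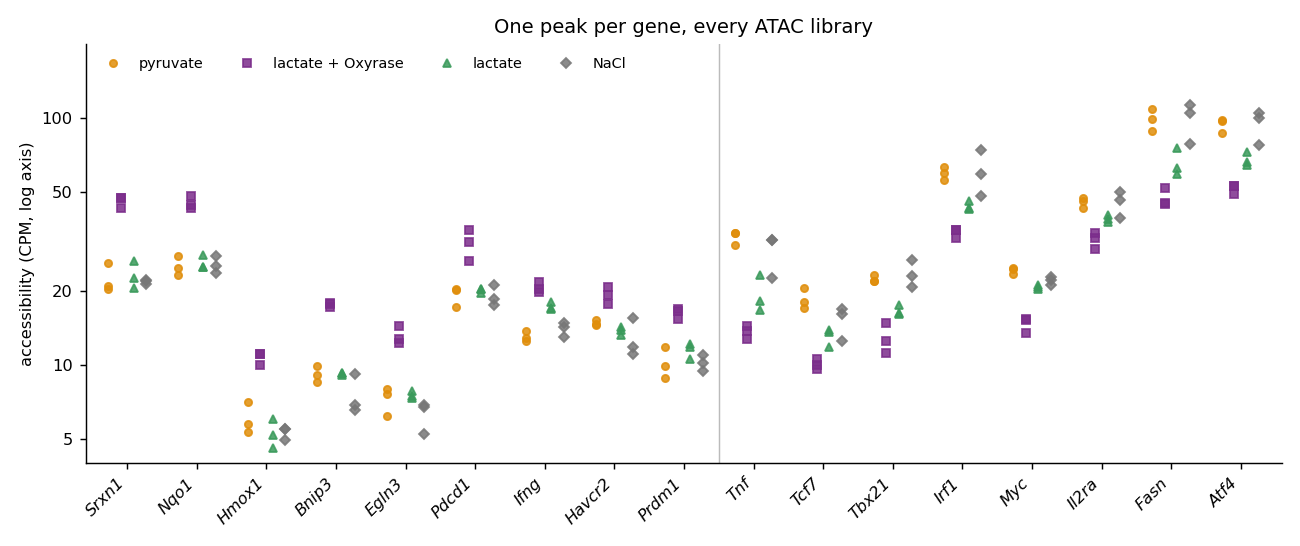
Accessibility (CPM, log axis) of 1 peak at each of 17 genes in all 12 ATAC-seq libraries, coloured by group; genes left of the line had a higher and genes right of it a lower peak with lactate and Oxyrase. The squares (lactate with Oxyrase) do not overlap the circles (pyruvate) at any of the 17 peaks, and lactate alone lies near pyruvate at Nqo1, Srxn1, Bnip3 and Egln3 and between the groups at Tnf, Irf1 and Fasn.

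Transcript levels and start accessibility were next set side by side. In RNA-seq the comparison called 6513 of 14749 genes (44.2%), with 3384 higher (22.9%) and 3129 lower (21.2%). For 9103 genes both a start peak and a transcript were measured. Where the start peak was lower (5411 genes), 26.5% of transcripts were higher and 23.0% lower, against 26.1% and 23.7% over all 9103. Where the start peak was higher (308 genes) the shares were 29.5% and 18.8%. Start peaks were higher in 3.38% and lower in 59.4% of all 9103 genes. Of 286 transcripts that rose at least 2-fold, the start peak was higher in 45 (15.7%) and lower in 106 (37.1%). Of 127 that fell at least 2-fold it was higher in 12 (9.45%) and lower in 41 (32.3%), so that called higher starts were a larger share, and lower ones a smaller share, in both directions of transcript change than over all genes. Peaks away from gene ends were counted for 9265 genes, of which 27.3% had higher and 25.1% lower transcripts. Genes with 3 or more higher and no lower such peak (698 genes) had 32.2% higher and 29.5% lower transcripts, and genes with 3 or more lower and no higher (216) had 21.3% higher and 35.2% lower.

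A pair of pathways had transcripts that moved in opposite directions, with start peaks lower in more than 50% of cases in both. The integrated stress response is the programme in which the factor ATF4 induces amino acid transport and synthesis genes. Its transcripts rose in 30 of 30 measured genes (median 0.89). Of 34 gene-start peaks in or within 10 kb of its genes 19 were lower (55.9%) and 2 higher, with a median of −0.25. Among all gene starts 45.6% were lower, with a median of −0.21. The start of Atf4 itself fell from 97.3, 98.7 and 87.2 CPM to 53.1, 53.3 and 49.2 CPM (−0.86 ± 0.10) while its transcript rose by 0.57 ± 0.05. At Stc2, a secreted stress-induced glycoprotein, a peak 1.251 kb upstream rose from 6.84, 7.87 and 7.81 CPM to 13.8, 17.05 and 15.8 CPM (1.05 ± 0.12), with a transcript that rose by 1.63 ± 0.14. Genes of cholesterol and fatty acid synthesis had 27 of 29 transcripts lower and 2 higher (median −0.75). Of 36 gene-start peaks in or within 10 kb of these genes 22 were lower (61.1%) and 3 higher (median −0.43). Counted by gene, the start peak was lower in 13 of 25 integrated stress response genes and in 12 of 18 cholesterol and fatty acid genes. The like share was 59.4% among the 9103 genes with a start peak and a measured transcript. The start of Fasn, fatty acid synthase, fell from 99.3, 109 and 89.1 CPM to 45.03, 52.1 and 45.5 CPM (−1.06 ± 0.11), and its transcript by 0.69 ± 0.05. At Srebf2, the master regulator of cholesterol genes, a peak just downstream of the start fell by 1.28 ± 0.15 and the transcript by 0.48 ± 0.03.

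**Figure D5:**
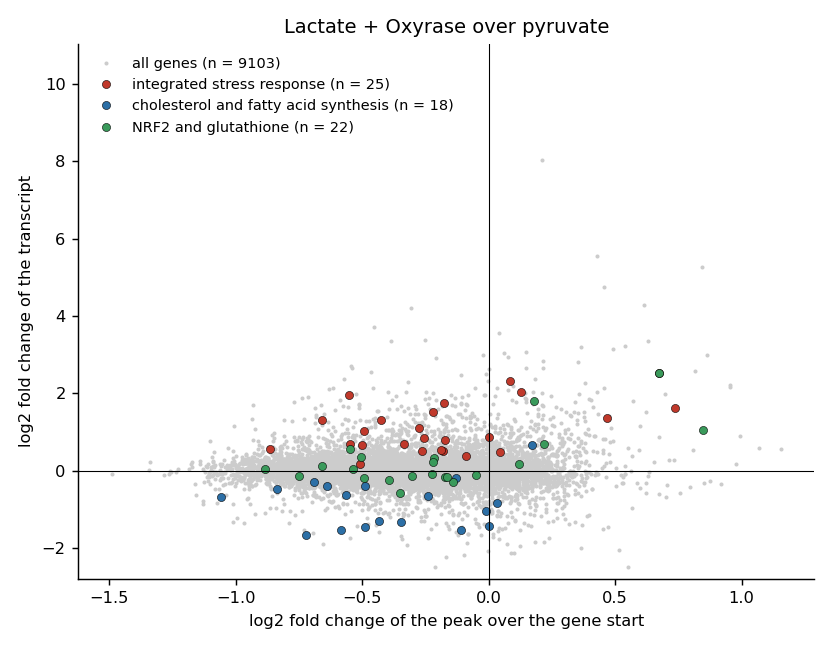
Log2 fold change of the peak over the gene start (x axis) against that of the transcript (y axis) for 9103 genes (grey), with genes of the integrated stress response (red), cholesterol and fatty acid synthesis (blue) and NRF2 and glutathione (green) marked. Red and blue points both lie mostly left of 0 on the x axis but mostly on opposite sides of 0 on the y axis.

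Gene-start peaks in or within 10 kb of replication and mitosis genes were mostly lower (25 lower, or 62.5%, and 1 higher of 40). So were those of p53 targets (12 lower, or 60%, and 2 higher of 20). At E2f2, a cell-cycle transcription factor gene, the start fell from 31.1, 33.0 and 30.5 CPM to 16.5, 15.02 and 16.7 CPM (−0.97 ± 0.09), and the transcript by 0.24 ± 0.05. The start of Trp53 fell by 0.92 ± 0.10 and its transcript did not pass the test (−0.01 ± 0.04, adjusted p = 0.890). Among all gene-start peaks 45.6% were lower. Counted by gene, the share was 59.4% of the 9103 genes with a start peak and a measured transcript. Of 23 such replication and mitosis genes, lower starts stood with a higher transcript in 1, an uncalled one in 5 and a lower one in 8. For 15 p53 targets these counts were 2, 5 and 3.

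Marker genes checked the cell type. In RNA-seq the summed level of 12 CD8 T cell markers was 3226 to 3328 CPM with pyruvate and 2648 to 2737 CPM with lactate and Oxyrase, and Cd8a transcript fell by 0.57 ± 0.03. Of 184 peaks at CD8 lineage genes 54 were lower (29.3%, against 17.9% of all peaks) and 21 higher (11.4%, against 21.6%). A peak downstream of Cd8a rose by 1.00 ± 0.11 and one in Runx3, which directs the CD8 lineage, fell by 1.05 ± 0.12 while the Runx3 transcript rose by 0.54 ± 0.04. Markers of CD4 T cells summed to 21.2 to 22.4 and 53.7 to 62.3 CPM, and single genes went both ways. Zbtb7b, the gene of the CD4 lineage factor ThPOK, rose from 9.72 ± 0.40 to 43.1 ± 5.5 CPM (SD, n = 3). Foxp3, the regulatory T cell factor, fell by 1.84 ± 0.21 (log2) and Cd40lg, the gene of CD40 ligand, by 1.74 ± 0.30, and Cd4 itself did not pass the test (−0.15 ± 0.37, adjusted p = 0.769). B cell markers summed to 3.46 to 4.10 and 4.78 to 5.80 CPM. Among them Ebf1 rose by 1.62 ± 0.29, Cd79a fell by 2.21 ± 0.59 and Cd79b did not pass the test (0.32 ± 0.15, adjusted p = 0.0904). Outside that sum, Cd22 fell by 1.80 ± 0.63 and Ighm, the IgM heavy chain gene, from 147 to 69.1 CPM (−1.09 ± 0.05). NK and gamma-delta markers summed to 13.5 to 14.7 and 20.5 to 23.97 CPM with Ncr1 at 0 in every library. Most of that sum was Klri2, at a mean of 17.2 CPM, and its transcript rose by 0.78 ± 0.08. Of 4 measured transcripts on the wider NK and gamma-delta list, 1 rose and 1 fell, with a median of −0.77. Myeloid and dendritic markers were under 1 CPM in total in each library, and erythroid and stromal markers summed to 24.8 to 26.2 and 13.8 to 17.4 CPM with Hba-a1 and Hbb-bs at 0. Most of the erythroid and stromal sum was Pecam1, at a mean of 19.4 CPM, and its transcript fell by 0.76 ± 0.08. Col1a1 did not pass the test (0.95 ± 0.48, adjusted p = 0.120). Myeloid markers thus stayed at or near 0, and the part of the other marker differences in the peak results was not tested.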

How the data were processed

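ATAC-seq peak counts and RNA-seq estimated counts were analysed for 3 libraries per group and assay. The authors deposited whole read counts per mm10 peak, without duplicate or mitochondrial reads according to column names, per the file headers. Tools in the submitters' processing notes are MACS2, BWA, Trimmomatic, Picard, edgeR 3.20.9 and bedtools; whether peaks were called on pooled samples is not given in the sources used here. The authors deposited RSEM estimated counts per gene (RSEM 1.2.12 and Bowtie2 2.2.0 per the submitters' processing notes), which were rounded here.

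Per assay, 1 edgeR 4.0.16 quasi-likelihood model (TMM, filterByExpr, 8 residual degrees of freedom) was fitted to all 12 libraries, with Benjamini-Hochberg adjustment over all 75802 peaks or 14749 genes and a threshold of 0.05. All peaks passed the filter, and the coefficient of biological variation came to 9.70% (ATAC-seq) and 5.05% (RNA-seq). Peaks were placed on RefSeq GRCm38.p6 genes. At gene ends means within 1 kb of either end of a gene, and at gene starts means also within 1 kb of a listed start. Peaks of a list lie in or within 10 kb of its genes, so its gene-start peaks can belong to neighbouring genes. The model was tested on simulated counts. In ATAC-seq it recovered 1 of 50 changes of 1.25-fold, 24 of 50 of 1.5-fold, 39 of 50 of 2-fold and 50 of 50 of 4-fold. In RNA-seq these counts were 27, 28, 40 and 48 of 50. The simulation changed few features and held no trend with location, unlike these data. Members, gene lists and the rule for named peaks were chosen with earlier results of these data known. Named peaks were the 8 highest and 8 lowest called peaks of mean log2 CPM at least 3 near a gene whose symbol is no predicted name and without overlap between groups, up to 4 peaks of smallest p per list, that of smallest p at 30 chosen genes, and the loci with the most called peaks. The text names some of these. Alternatives changed the scaling, filter, threshold, tool (DESeq2 1.42.0), samples and replicates. Software was Python 3.11.15 and R 4.3.3. Library totals were 25308254 to 37074367 ATAC-seq counts.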

Additional observations from a re-analysis of the deposited data

How the results depend on the processing

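The count of called peaks was 24454 to 27168 when each replicate was left out in turn (13151 to 14961 higher, 11303 to 12399 lower), and that of called genes 5744 to 6014. TMM factors from gene-end peaks gave 28470 higher and 7430 lower peaks. The median log2 fold changes of gene-end peaks and of peaks away from gene ends, −0.15 and 0.12 with TMM, were −0.18 and 0.091 with DESeq2 size factors, −0.20 and 0.069 with upper-quartile scaling, −0.051 and 0.22 with total counts, −0.25 and 0.017 with TMM from peaks away from gene ends, and 0.046 and 0.31 with TMM from gene-end peaks, where the gene-end median changed sign. They were −0.088 and 0.052 with a loess trend on mean level removed (chosen after seeing the data), −0.093 and 0.13 with gene ends drawn at 2.5 kb, and −0.011 and 0.16 at 10 kb. Leaving out 1 replicate gave −0.16 to −0.14 and 0.11 to 0.13. Over the gene lists 1051 peaks were called within 10 kb and 400 when only gene-end peaks were counted. Of 2031 recomputed values of 120 named peaks under 17 alternatives, 2015 kept their direction and side of the threshold, 16 lost the call and 0 changed direction. The replicate numbers did not pair the samples: deviations of same-numbered samples correlated at 0.04, 0.11 and 0.11 in ATAC-seq and −0.14, −0.14 and −0.08 in RNA-seq. With the replicate number as a block, 31397 peaks and 5941 genes were called. The cause of these movements was not tested. Depth limits peaks of few counts most: no differential call there does not show that accessibility was equal.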
